A study of Bos taurus with 8 samples.

Results

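The fatty acid desaturases and elongases were followed in bovine blastocysts that had developed with or without serum lipids. The set comprised 9 genes: the stearoyl-CoA desaturases SCD and SCD5, the front-end desaturases FADS1 and FADS2, and the elongases ELOVL1, ELOVL2, ELOVL5, ELOVL6 and ELOVL7. Every expression probe whose symbol in the platform's probe-to-gene table was one of these names was taken, which gave 14 of the 43794 expression probes on the array, for 9 of the 15229 gene symbols given to these probes. FADS1 had 2 probes, ELOVL5 and ELOVL6 had 3 probes each, and the other 6 genes had 1 probe each. All 14 gave signal above background on enough arrays to be tested, among 28844 such probes in all.

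The lipid group consisted of 4 pools of 10 Holstein blastocysts, cultured with lipids extracted from serum from the 8-16 cell stage on day 3 to the blastocyst stage on day 7. The control group consisted of 4 pools of 10 blastocysts that received no added lipid. In both groups the oocytes came from slaughterhouse ovaries, were matured and fertilized in vitro, and the embryos were collected 170 hours after fertilization. The labels name Sigma as the source of the serum albumin in both groups. The question was how exposure to serum lipids alters the transcriptome of the blastocyst.

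Each lipid pool was hybridized together with a control pool on 2 two-colour arrays, on slides 87 and 88, with the dyes Cy3 and Cy5 exchanged between them. These 2 arrays form a pool pair, and the 4 pool pairs are the unit of every comparison. A log2 ratio below is lipid over control, so that a positive value means a higher level with lipid. Means are given ± SE over the 4 pool pairs (n = 4), where the SE is the SD over pool pairs divided by the square root of n.

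As background, fatty acids made by the embryo or taken up from the medium are modified in the endoplasmic reticulum by both enzyme classes. Desaturases put double bonds into acyl-CoA chains, with electrons passed on by cytochrome b5. Elongases catalyse the condensing step of a cycle that lengthens the chain. SCD and SCD5 turn saturated chains into monounsaturated ones such as oleate, FADS2 and FADS1 act in turn on the essential fatty acids on the way to arachidonic acid and its omega-3 counterparts, and the elongases differ in the chains they prefer. In mammalian cells several of these genes are known targets of the lipid-sensing factors SREBP and LXR, and polyunsaturated fatty acids are known to lower SCD transcripts in liver.

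The arrays differed in their background limit, which is set by the negative control spots. On array 1 of slide 87 it was raised, to 461 in Cy5 and 958 in Cy3. The median intensities of that array, 188 and 270, lay within the range of the other arrays. There 20.5% of the expression probes exceeded the limit, against 55.2% to 73.8% on the other 7 arrays. Probes spotted repeatedly varied within an array by a median SD of 0.12 to 0.38 in log2 ratio. All of the 10 trophectoderm and 7 inner cell mass markers listed gave signal above background on enough arrays to be tested. So did 28844 of the 43794 expression probes and 5 of the 6 blood cell markers listed. CDX2 exceeded the limit on 4 of 8 arrays in the lipid and 2 in the control channel. KRT8 and POU5F1 exceeded it on all 8 in both channels. Markers of cumulus, granulosa and stromal cells, which can adhere to embryos, had medians of -0.04, 0.74, -0.03 and 0.14 in pool pairs 1 to 4 over the 17 of 20 that were measured. Their summed normalized intensity was 9157 to 43053 in the lipid pools and 8567 to 17239 in the control pools, and the highest value belonged to the lipid pool of pool pair 2. In that pool pair LUM had a log2 ratio of 3.70, VIM 2.96 and DCN 1.83, and 14 of the 17 markers were above 0. Those below 0 were CYP19A1 (-0.24), NR5A1 (-0.19) and HAS2 (-0.18).

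No member passed the test between lipid and control blastocysts. In the limma fit, 0 of the 14 member probes and 0 of all 28844 probes had an adjusted p under 0.05 (0% called), and the lowest adjusted p of a member was 0.996. At an unadjusted p under 0.05 stood 3 member probes, those of SCD5, the dimmer FADS1 probe and the dimmest ELOVL6 probe, and over all probes 1287 (4.46%). The same 3 probes had ratios of one sign in all 4 pool pairs, which 11.4% of all probes had. Of the 14 member probes, 5 had a mean above 0, against 46.3% of all probes, and their median was -0.07, against -0.0086 over all probes. A mean change of at least 1.5-fold was reached by 1 member probe, that of SCD5, and by 0.641% of all probes. For each member probe, the normalized levels of the lipid pools overlapped with those of the control pools, while 0.874% of all probes showed no overlap.

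**Figure D1:**
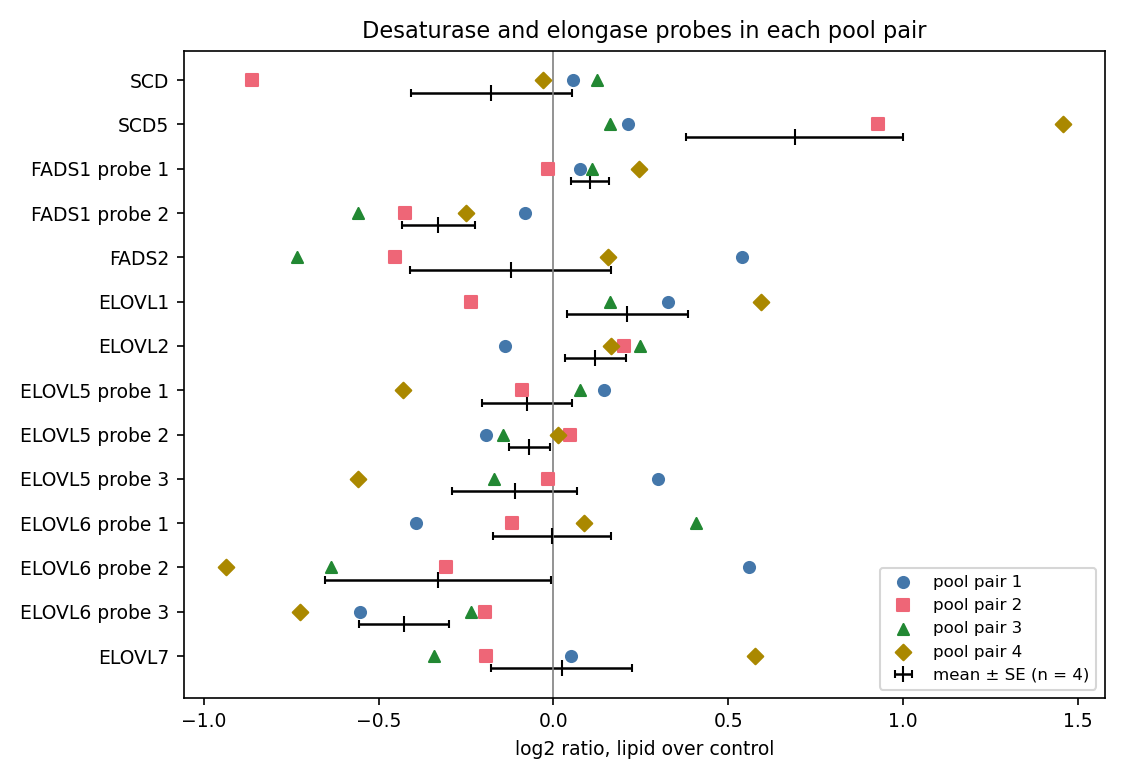
Log2 ratio of lipid over control (horizontal axis) for the 14 member probes, with 1 symbol for each of the 4 pool pairs and, below it, the mean with its SE as a black bar. Probes of a gene are numbered from the brightest. SCD5 lies above 0 in every pool pair, and SCD has 1 pool pair at -0.86 with the others near 0.

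SCD, the main stearoyl-CoA desaturase of most tissues, was measured with probe EMBV3_35845, far above background in both channels of all 8 arrays. Its normalized log2 intensity in pool pairs 1 to 4 was 13.71, 13.26, 13.95 and 14.45 in the lipid pools, against 13.65, 14.12, 13.82 and 14.47 in the control pools. The log2 ratios were 0.06, -0.86, 0.12 and -0.03, with a mean of -0.18 ± 0.23. Only in pool pair 2 did SCD stand far from 0, and in the other pool pairs the ratios lay between -0.03 and 0.12. In pool pair 2 the arrays of opposite dye gave -0.87 on slide 87 and -0.86 on slide 88. Without pool pair 2 the mean turned to 0.05. The lipid pool of pool pair 2 also had the highest summed intensity of the cumulus, granulosa and stromal markers. Their part in the SCD ratio was not tested.

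SCD5, the second stearoyl-CoA desaturase, which in mammals is best known from brain and pancreas, had the largest mean ratio among the members. Probe EMBV3_02032 read 8.17, 9.46, 9.33 and 10.28 in the lipid pools of pool pairs 1 to 4, against 7.95, 8.54, 9.17 and 8.82 in the control pools. The log2 ratios were 0.21, 0.93, 0.16 and 1.46, all above 0, with a mean of 0.69 ± 0.31, or 1.61 times the control level. Over all probes, 4.75% lay above 0 in all 4 pool pairs. The limma interval at 95%, not adjusted for the number of probes, ran from 0.08 to 1.30 (limma unadjusted p = 0.0328, adjusted p = 0.996).

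The SCD5 ratio was uneven among the pools. Pool pairs 2 and 4 stood at 0.93 or more, and pool pairs 1 and 3 at 0.21 or less. The single arrays of slides 87 and 88 gave 0.40 and 0.03 in pool pair 1, 1.08 and 0.78 in pool pair 2, -0.14 and 0.46 in pool pair 3, and 1.81 and 1.10 in pool pair 4. The arrays of pool pair 3 therefore differed in sign, and 7 of the 8 arrays were above 0. On array 1 of slide 87 neither channel of the SCD5 probe exceeded the raised background limit of that array. The mean was 0.79 on slide 87, 0.59 on slide 88 and 0.61 without pool pair 2. Without pool pair 4 it was 0.43, so the mean of at least 1.5-fold rested on that pool pair.

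**Figure D2:**
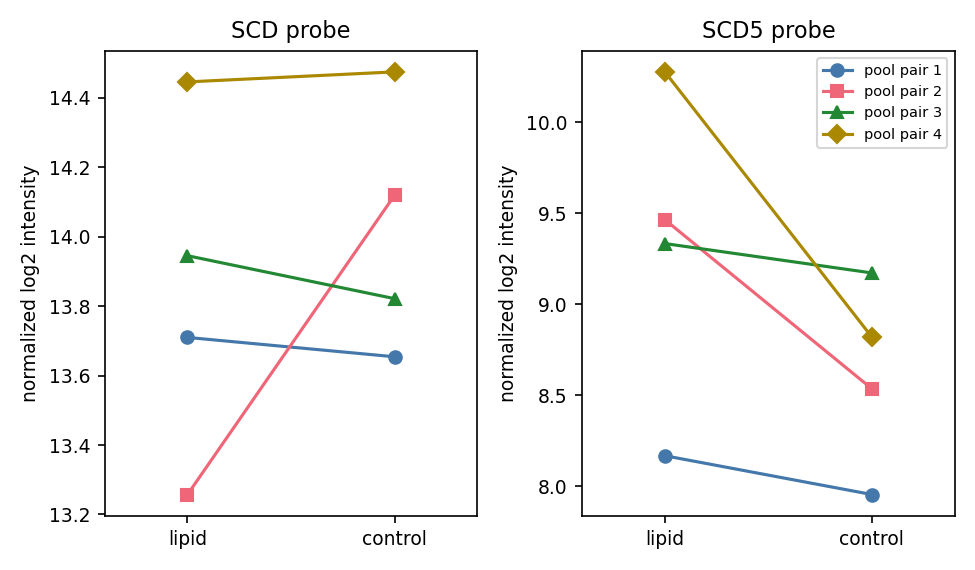
Normalized log2 intensity (vertical axes, each with its own range) of the SCD probe and the SCD5 probe in the lipid and control pools of the 4 pool pairs, joined by a line for each pool pair. The lines of SCD5 all run higher at the lipid end, and those of SCD are close to level except in pool pair 2, with 13.26 in the lipid and 14.12 in the control pool.

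SCD and SCD5 were set against each other within the pool pairs. The SCD ratio minus the SCD5 ratio was -0.16, -1.79, -0.04 and -1.49 in pool pairs 1 to 4, with a mean of -0.87 ± 0.45. All 4 differences were below 0, but those of pool pairs 1 and 3 were small, and on the single arrays 6 of 8 were below 0. The exceptions were array 3 of slide 87, at 0.19, and array 1 of slide 88, at 0.03. With scale normalization between arrays the 4 pool pairs no longer shared a sign, and the exact permutation p was 0.25 (n = 4). The exact two-sided permutation test over sign changes gave p = 0.13, the smallest value that n = 4 pool pairs allow, so the threshold of 0.05 could not be reached. Without pool pair 2 the mean difference was -0.56, and without pool pair 4 it was -0.66.

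FADS2, which takes the entry step of polyunsaturated fatty acid synthesis, had ratios of both signs. Probe EMBV3_26123 gave 13.92, 11.65, 12.51 and 12.68 in the lipid pools and 13.38, 12.10, 13.24 and 12.53 in the control pools. The log2 ratios were 0.54, -0.45, -0.73 and 0.16, with a mean of -0.12 ± 0.29. The arrays of one pool pair often disagreed for this probe, with a mean gap of 0.83 between them, against a median gap of 0.29 over all probes. The gap followed the dye: in each pool pair the array with lipid in Cy5 gave the lower ratio, and the means were -0.54 with lipid in Cy5 and 0.29 with lipid in Cy3. In pool pair 3 these arrays gave -1.31 and -0.15.

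FADS1, which acts after FADS2 and forms arachidonic acid, was read by 2 probes with means of opposite sign. The brighter probe, EMBV3_22383, had log2 ratios of 0.08, -0.02, 0.11 and 0.24 in pool pairs 1 to 4, a mean of 0.10 ± 0.05. The dimmer one, EMBV3_38167, had -0.08, -0.43, -0.56 and -0.25, a mean of -0.33 ± 0.10, below 0 in all 4 pool pairs, as were 6.65% of all probes (limma unadjusted p = 0.0189, adjusted p = 0.996). Its signal passed the background limit on only 4 of the 8 arrays in the lipid channel and 4 in the control channel. Its mean was -0.10 on slide 87 and -0.55 on slide 88, where pool pair 3 had -1.15. By dye, it was -0.63 with lipid in Cy5 and -0.03 with lipid in Cy3. In the ARS-UCD2.0 gene table FADS1 and FADS2 are neighbours, with FADS3 next in line. Their brightest probes had ratios of opposite sign in pool pair 3 alone, with 0.11 for FADS1 and -0.73 for FADS2. The sign of FADS1 was not stable, since the arrays of its brighter probe shared a sign in only 1 of the 4 pool pairs. In pool pair 2 they gave 0.21 on slide 87 and -0.24 on slide 88.

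ELOVL6, which lengthens palmitate to stearate, the substrate of SCD, was read by 3 probes with unlike patterns. The brightest, EMBV3_40920, had log2 ratios of -0.39, -0.12, 0.41 and 0.09 in pool pairs 1 to 4, with a mean of -0.0046 ± 0.17. The second, EMBV3_13373, had 0.56, -0.31, -0.63 and -0.94, with a mean of -0.33 ± 0.32. The dimmest, EMBV3_30333, had -0.55, -0.20, -0.23 and -0.72, with a mean of -0.43 ± 0.13. In pool pair 1 the second probe was higher with lipid while both of the others were lower, and in pool pair 3 the brightest was higher while both of the others were lower.

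The brighter 2 ELOVL6 probes disagreed with each other although each repeated closely between arrays. For the second ELOVL6 probe the arrays of slides 87 and 88 gave 0.53 and 0.59 in pool pair 1, -0.39 and -0.23 in pool pair 2, -0.62 and -0.65 in pool pair 3, and -0.92 and -0.96 in pool pair 4. Its mean gap between the arrays of a pool pair was 0.07, whereas its pool pairs spanned a range of 1.5, as wide as or wider than in all but 3.40% of probes. The first probe repeated nearly as closely, with a mean gap of 0.10 and a range of 0.80. Both probes, and that of ELOVL1, had arrays of one sign within each pool pair, as 17% of all probes had. The second probe read 10.58, 10.43, 9.79 and 10.26 in the lipid pools, against 10.02, 10.73, 10.43 and 11.19 in the control pools, so that the lipid pool was the higher only in pool pair 1. The dimmest probe repeated less well, with a mean gap of 0.37, and in pool pair 3 its arrays gave -0.59 on slide 87 and 0.13 on slide 88. It was above the background limit on 5 of 8 arrays in the lipid and 6 in the control channel (limma unadjusted p = 0.0117, adjusted p = 0.996).

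ELOVL5, an elongase of polyunsaturated chains, also had 3 probes, all with means close to 0. The brightest, EMBV3_34956, had log2 ratios of 0.15, -0.09, 0.08 and -0.43 in pool pairs 1 to 4, with a mean of -0.07 ± 0.13. The probe EMBV3_13918 followed it at the extremes, with 0.30 in pool pair 1 and -0.56 in pool pair 4, and a mean of -0.11 ± 0.18. In pool pair 4 both low values came mostly from slide 88, with -0.79 and -1.0 there, against -0.07 and -0.11 on slide 87. The probe EMBV3_19471 stayed between -0.19 and 0.05, with a mean of -0.07 ± 0.06. The 2 dimmer probes passed the limit on 5 or 6 of the 8 arrays in each channel.

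**Figure D3:**
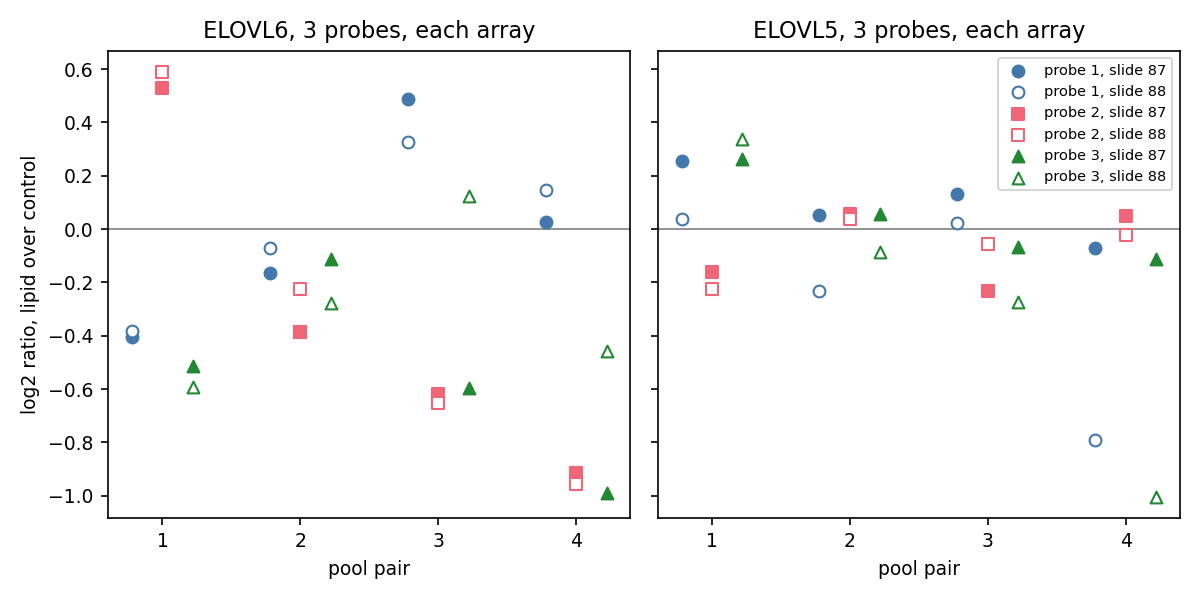
Log2 ratio of lipid over control (vertical axis) on each array, by pool pair (horizontal axis), for the 3 probes of ELOVL6 (left) and the 3 probes of ELOVL5 (right), numbered from the brightest. Filled symbols are slide 87 and open symbols slide 88. The second ELOVL6 probe repeats closely between slides and runs between 0.59 and -0.96.

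ELOVL1, which makes saturated and monounsaturated chains of very great length for sphingolipids, had the highest mean of the elongases. Its probe EMBV3_22476 read 12.42, 12.45, 11.60 and 12.25 in the lipid pools, against 12.09, 12.69, 11.43 and 11.66 in the control pools. The log2 ratios were 0.33, -0.24, 0.16 and 0.59, with a mean of 0.21 ± 0.17. Lipid pools were higher in 3 of the 4 pool pairs and lower in pool pair 2, and the mean was 0.36 without pool pair 2 and 0.08 without pool pair 4. ELOVL2 had the higher mean when pool pair 1 or pool pair 4 was left out, with 0.20 and 0.10 for ELOVL2, against 0.17 and 0.08 for ELOVL1.

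ELOVL2, which extends the longest polyunsaturated chains on the way to docosahexaenoic acid, had log2 ratios of -0.14, 0.20, 0.25 and 0.17 in pool pairs 1 to 4, with a mean of 0.12 ± 0.09 (probe EMBV3_40830). The probe was dim, with foreground intensities of 291 to 496, and exceeded the background limit on 7 of 8 arrays in each channel. On array 4 of slide 87 the foreground was 291 in both channels before normalization, and the normalized ratio was -0.49. The single arrays of ELOVL2 followed the dye and not the treatment. The 4 arrays with lipid in Cy5 gave 0.33 to 0.90 and averaged 0.71, and the 4 arrays with lipid in Cy3 gave -0.61 to -0.40 and averaged -0.47. For 16.7% of all probes the sign followed the dye on all 8 arrays, and 2.59% had a larger dye difference than ELOVL2. The mean ratio of ELOVL2 is thus the small remainder of large opposite values. The brighter FADS1 probe averaged 0.30 with lipid in Cy5 and -0.09 with lipid in Cy3.

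**Figure D4:**
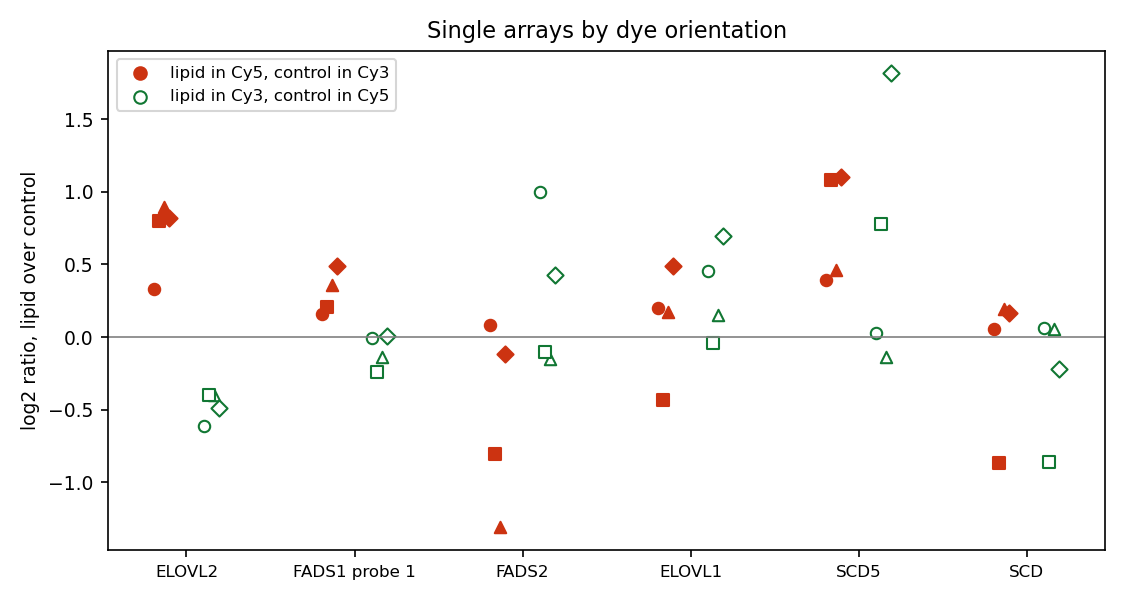
Log2 ratio of lipid over control (vertical axis) on each of the 8 arrays for 6 member probes. Filled red symbols are arrays with lipid in Cy5 and open green symbols arrays with lipid in Cy3, and circles, squares, triangles and diamonds are pool pairs 1 to 4. For ELOVL2 all red symbols lie above 0 and all green ones below, and for SCD both arrays of pool pair 2 lie near -0.9.

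ELOVL7, an elongase of saturated long chains, was the dimmest of the genes read by 1 probe relative to its background limits. Probe EMBV3_36936 exceeded the limit on 3 of 8 arrays in the lipid channel and on 3 in the control channel. Its log2 ratios were 0.05, -0.19, -0.34 and 0.58, with a mean of 0.02 ± 0.20. In pool pair 4 both arrays were above 0, at 0.56 and 0.59. Of these, only the lipid channel on slide 87 exceeded the limit, so both values lie near background.

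The 5 elongases were compared with one another through the brightest probe of each, which gave 10 pairs. In 0 of the 10 pairs did the difference of log2 ratios have the same sign in all 4 pool pairs. The widest mean difference was that of ELOVL1 minus ELOVL5, 0.29 ± 0.26, with -0.15 to 1.02 in the single pool pairs (exact permutation p = 0.375, n = 4). It was 0.04 without pool pair 4 and 0.06 on slide 87 alone. ELOVL1 minus ELOVL6 was 0.22 ± 0.24, with -0.24 to 0.72 (exact permutation p = 0.50, n = 4), and with the mean over all probes of a gene it was the widest, at 0.47. The narrowest was ELOVL6 minus ELOVL7, -0.03 ± 0.29, with -0.49 to 0.75 (exact permutation p = 1, n = 4). No p under 0.13 was possible, and the ranges leave differences of up to about 1 in single pool pairs. The order of the means, ELOVL1, ELOVL2, ELOVL7, ELOVL6 and ELOVL5, was thus not larger than the spread between pool pairs for any neighbours. ELOVL5 minus ELOVL6 changed sign, to 0.17, with the mean over all probes.

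Across pool pairs the members did not move as a block. In pool pair 4, SCD5 (1.46), ELOVL1 (0.59) and, near background, ELOVL7 (0.58) were higher with lipid. ELOVL5 (-0.43) and the dimmer ELOVL6 probes (-0.94 and -0.72) were lower there. In pool pair 2, SCD (-0.86) and FADS2 (-0.45) were lower and SCD5 (0.93) was higher. In pool pair 3, FADS2 (-0.73) and the second ELOVL6 probe (-0.63) were lower and the first ELOVL6 probe (0.41) was higher. For 1 of the 14 probes, SCD, the ratio of pool pair 2 was the farthest from 0, against 26.9% of all probes.

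Related genes of the pathway were described through 5 lists, with 1 probe a gene, and 0 of their members passed the limma threshold in either direction. Of the desaturase and elongase relatives 5 of 7 were measured, 4 above 0 and 1 below, with a median of 0.05. ELOVL4, an elongase of very long chains known from retina, had 0.18 ± 0.11, DEGS2, a sphingolipid desaturase, had -0.15 ± 0.15, and DEGS1, the desaturase that completes ceramide, had 0.14 ± 0.14. The partners of the elongation cycle had 4 of 7 measured, 2 above 0 and 2 below, with a median of -0.02. TECR, the reductase that closes the cycle, had 0.48, -1.21, 0.52 and -0.21 in pool pairs 1 to 4 through its brightest probe and a mean of 0.06 through the other. HACD2 (PTPLB on the array), a dehydratase of the cycle, had 0.07 ± 0.18 through its brightest probe and -0.09 through the other. HACD3 (PTPLAD1) had -0.08 ± 0.24.

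Of the electron donors 4 of 6 were measured, 3 above 0 and 1 below, with a median of 0.07. CYB5R3, the reductase that feeds cytochrome b5, had -0.25 ± 0.16, and CYB5R1 had 0.13 ± 0.07. CYB5A, the microsomal cytochrome b5 itself, had 0.08 ± 0.06 through its brightest probe and -0.10 through the other. The list of substrate supply and use had 16 of 18 measured, 7 above 0 and 9 below, with a median of -0.01. There ACSL1, which activates fatty acids to acyl-CoA, averaged -0.20 ± 0.07, and MCAT, of mitochondrial fatty acid synthesis, -0.09 ± 0.04. Both had negative ratios in each of the 4 pool pairs, as had 6.65% of all probes. ACSL6 had 0.22 ± 0.10.

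Among 15 transcriptional regulators 13 were measured, 7 above 0 and 6 below, with a median of 0.01. Of these, 2 had a limma unadjusted p under 0.05, as had 4.46% of all probes. PPARD, a fatty acid-sensing receptor, averaged 0.23 ± 0.07 (limma unadjusted p = 0.0323, adjusted p = 0.996). Its ratios were positive in each of the 4 pool pairs, as were those of 4.75% of all probes. NR1H3, the oxysterol receptor LXR alpha, had -0.12, 0.73, 0.44 and 0.54 in pool pairs 1 to 4, a mean of 0.40 ± 0.18, and its other probe had -0.11. SREBF1, which encodes the SREBP that acts on fatty acid genes, had -0.20, -0.53, 0.60 and -0.37, with a mean of -0.12 ± 0.25. INSIG1, which retains the SREBP complex in the endoplasmic reticulum and is itself a SREBP target, had 0.45, -1.65, -0.80 and -0.00033, with a mean of -0.50 ± 0.46. INSIG1 had its lowest value in pool pair 2, where SCD also had its lowest. FADS2, like INSIG1, was above 0 in pool pair 1 and below 0 in pool pairs 2 and 3. In pool pair 3, however, INSIG1 stood at -0.80, where SCD (0.12) and SREBF1 (0.60) had their highest ratios. A shared control of these genes was not tested. The other INSIG1 probes had means of -0.06 and -0.04.

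**Figure D5:**
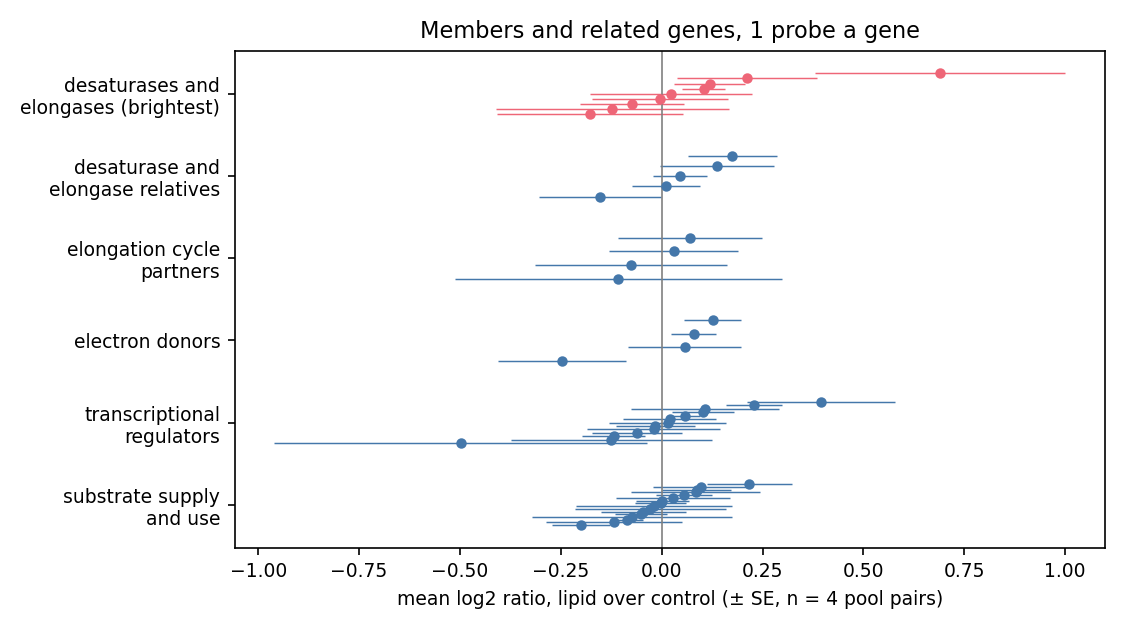
Mean log2 ratio of lipid over control with its SE over 4 pool pairs (horizontal axis) for the 9 members through their brightest probes (red, top row) and for the measured genes of the 5 related lists (blue). SCD5 at 0.69 lies to the right of all related genes, and INSIG1 at -0.50 is the lowest point.

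The genes whose array profiles were most like those of the desaturases were sought among 5964 genes with an SD of at least 0.3 over the 8 arrays, which share 4 pool pairs. For SCD, Pearson's r was highest for LIMS2 (0.99), ALDH4A1 (0.99), ENO1 (0.98), HMGA1 (0.98) and XDH (0.98). Each of these, like SCD, was below 0 in pool pair 2, from -0.87 for ALDH4A1 to -0.54 for XDH. In the other pool pairs they were above 0, where SCD ran from -0.03 to 0.12. For SCD5 the nearest were IKIP (0.94), ATL3 (0.94), MTMR4 (0.92), VAV3 (0.92) and SRRM1 (0.91). These were above 0 in pool pairs 2 and 4, where SCD5 was highest, and below 0 in pool pairs 1 and 3, where SCD5 was still above 0. No p is given for these values, since the genes were picked for a high r.

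In pooled whole embryos, fewer cells of a type and less RNA per cell cannot be told apart. It is not stated whether each pool had its own fertilization run, so a p-value here reflects only how these particular pools varied, which may be in part technical.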

How the data were processed

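The members and gene lists were chosen with earlier results of these data known. Per the file headers, the deposited scanner files give each spot's mean foreground and median local background intensity for Cy3 and Cy5. Columns were read by name, since 1 file lists them in another order. Per the labels, amplified antisense RNA was dye-coupled chemically.

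Intensities were corrected with normexp (offset 50) and loess-normalized within each array, control spots at weight 0, in limma 3.58.1 under R 4.3.3. A probe was kept where its Cy3 or Cy5 foreground lay over a limit on at least 4 of 8 arrays, the limit being 2 SD over the average of 757 negative control spots. Levels shown per pool add Aquantile scaling of average intensity.

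By the series' design text, pools of one number were hybridized on 2 arrays with dyes exchanged. Arrays of the same number deviated together (r of 0.61 to 0.77 in the 4 pairs), and each number was averaged to 1 pool pair. Arrays of other numbers gave r of -0.32 to -0.03. Deviations were taken from the mean of each dye orientation, which pulls these values below 0 where same-number arrays are alike. Ratios were tested against 0 with limma (lmFit, eBayes, two-sided, Benjamini-Hochberg over all 28844 kept probes), checked on simulated data, and differences between genes by exact sign-flip permutation. Genes with several probes are represented by the brightest.

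A table of processed values deposited by the authors was taken to hold log2 ratios, and limma is named in the submitters' processing notes. Its columns ran as lipid over control (r of 0.98 to 0.99 with the values above, medians of -0.03 to 0.02). Its log base and steps are unstated, and it was used only as an alternative. Named genes are all member probes, SREBF1, INSIG1, NR1H3, up to 3 genes of smallest p per list, and the 5 most alike profiles. For a pool pair that stands apart, up to 3 markers are named, with those of opposite sign there.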

Additional observations from a re-analysis of the deposited data

Results flagged for a closer look

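An isolated pool pair was looked for in 35 sets of 4 values, those of the 14 member probes, the 11 differences between genes and the 10 list medians, of which chance alone marks about 1 in 20. There was 1 such set. SCD had a log2 ratio of -0.86 in pool pair 2, far from the -0.03 to 0.12 of the other pool pairs. Both arrays of that pool pair, with opposite dyes, gave nearly the same value. The lipid pool of this pool pair also had the highest summed intensity of the cumulus, granulosa and stromal markers, and their part was not tested.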

How the results depend on the processing

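The member probes called stayed at 0 under all 17 alternatives that refit the probes. Treating the 8 arrays as independent samples (no replicate block), limma called 7 probes in all, none of them a member, and SCD minus SCD5, still -0.87, reached p = 0.0313 in the exact permutation test. Of the 17 alternatives that gave SCD minus SCD5, 6 leave its mean the same by construction. In the other 11 it was below 0, from -1.14 to -0.56. Their exact permutation p was at most 0.25, and with 4 or fewer pool pairs none could fall under 0.05. With signal required on all 8 arrays, SCD5, ELOVL2 and ELOVL7 were not kept and the comparison could not be made. The count of elongase pairs with differences of one sign was 0 of 10 and became 1 with the pool pair as a random replicate block and a dye term per slide, 3 on slide 88 alone, 1 with the mean over all probes of a gene, and 1 to 2 without one pool pair, where fewer values must share a sign. Of 231 values of the 14 member probes under the alternatives, 77 equalled the reported mean, as settings that alter only the filter, the scaling of intensity or the variance must. Of the other 154, 11 changed sign, in 6 probes, and SCD5 ran from 0.43 (without pool pair 4) to 0.87. Among the elongase pairs 13 of 117 such values changed sign. The dimmest ELOVL6 probe ran from -0.55 to -0.30 and the dimmer FADS1 probe from -0.55 to -0.10. SCD turned to 0.05 without pool pair 2, and the lowest adjusted p of any member probe was 0.312 (limma). Precision is limited by the number of arrays and by low signal over background for the dim probes.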
